A study of Mus musculus with 7 samples.

Results

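The 10 genes described here encode aggrecan (*Acan*), its link protein (*Hapln1*), and 8 secreted proteins built of leucine-rich repeats, namely decorin (*Dcn*), biglycan (*Bgn*), fibromodulin (*Fmod*), lumican (*Lum*), prolargin (*Prelp*), osteoglycin (*Ogn*), osteomodulin (*Omd*), and chondroadherin (*Chad*). They were taken by gene symbol, and all 10 had exactly 1 row among the 55401 genes of the deposited count table. All 10 passed the filter on low counts, together with 16429 genes in all, so no member was lost. RNA-Seq was performed on 7 samples of knee joint tissue from mice on the C57BL/6J background, 4 of WT mice and 3 of *Trpc1*-/- mice. All mice were male, were 10 weeks old when the right knee was destabilized surgically (destabilization of the medial meniscus, DMM, a model of osteoarthritis), and were collected 2 weeks later, and no knee without DMM is among the 7 samples. *Trpc1* encodes a calcium-permeable cation channel, and the knockout allele (*Trpc1*tm1Lbi), which lacks exon 8, is global, carried by every cell of the animal and not by chondrocytes alone. By the Methods each sample pooled 2 to 3 mouse knees, whereas each column name gives a single mouse number. The labels name cartilage, the Methods add subchondral bone, and the Methods also give the group sizes the other way round (3 WT and 4 *Trpc1*-/-). The labels were used.

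Aggrecan is the large proteoglycan of cartilage. Its core protein carries chondroitin sulfate and keratan sulfate chains, whose charge draws water into the tissue, and link protein fastens it to hyaluronan, so that many aggrecan molecules form one aggregate. The small leucine-rich proteoglycans bind the surface of collagen fibrils and help set fibril diameter and spacing, and several also bind growth factors such as TGF-β. Decorin and biglycan carry chondroitin or dermatan sulfate and form one class of the family, whereas fibromodulin, lumican, prolargin, and osteomodulin form another, osteoglycin belongs to a further class, and chondroadherin is a cartilage protein of the family that binds collagen and integrins. In osteoarthritis, loss of aggrecan from the matrix is an early event.

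The counts on genes summed to between 52142451 and 118254070 per sample, and the 10 genes together took 0.323%, 0.402%, 0.389%, and 0.327% of them in WT replicates 1 to 4 and 0.276%, 0.327%, and 0.218% in *Trpc1*-/- replicates 1 to 3. A level of 3 counts lay between 0.0254 and 0.0575 CPM (counts scaled for library size), and the lowest member, *Omd*, had 33.5 CPM or more in every sample, so counting error was small beside the spread between samples. Such floors cover counting error only. WT replicate 1 stood apart, with the smallest total, 22.5% of its counts on mitochondrial genes against 14.2% to 17.6% elsewhere, and a mean correlation with the other samples of 0.947 against 0.973 or more. *Trpc1* itself was lower in all 3 knockout samples, with 3.39 ± 0.379 CPM (SD, n = 3) against 4.62 ± 0.229 CPM (SD, n = 4), and these counts cover the whole gene rather than the deleted exon. Whether the samples of a group came from separate litters is not stated, and P values measure only the spread between these pools.

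Chondroadherin and prolargin were the members whose 3 *Trpc1*-/- values all lay below the 4 WT values. Of the 10 members, 9 had a logFC (log2 fold change, *Trpc1*-/- against WT) below 0, with a median of −0.35, beside 51.9% of all tested genes with a logFC below 0 and a median over all tested genes of −0.0088. With the quasi-likelihood test of edgeR, 0 members and 0 of the 16429 genes (0%) passed an adjusted P of 0.05, so no member was called with that test. At an unadjusted P under 0.05, 2 members were lower (*Chad* and *Prelp*), beside 5.49% of all tested genes. DESeq2, run on the same genes, called both of them lower at an adjusted P under 0.05, beside 0.828% of all tested genes lower and 1.79% in either direction. At an unadjusted P under 0.05 in DESeq2, *Dcn* joined them, beside 6.7% of all tested genes. The groups did not overlap for the same 2 members, beside 6.42% of all tested genes with all *Trpc1*-/- values below all WT values. With so few members these shares describe the list and say nothing of the other 8. In tissue of this kind, fewer cells of a type and less RNA per cell cannot be told apart.

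**Figure D1:**
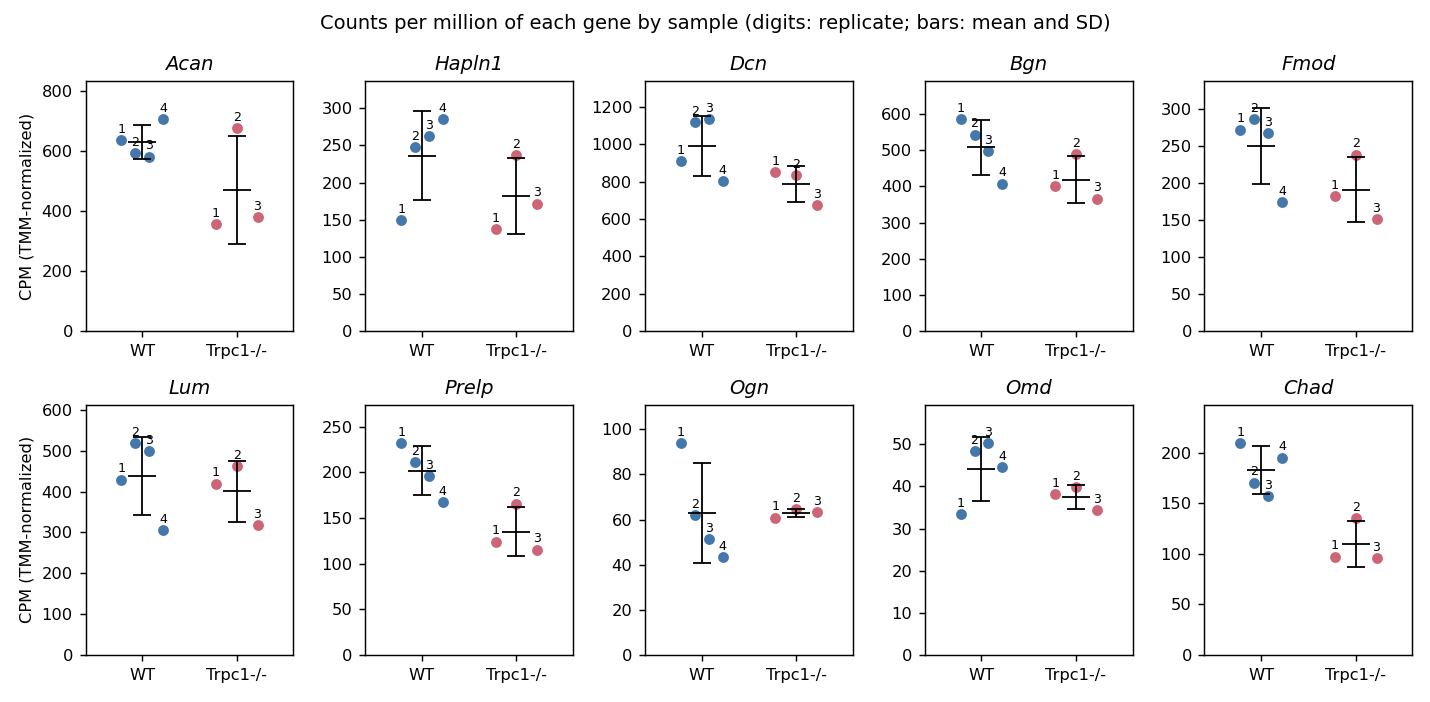
CPM of the 10 genes, 1 panel per gene with its own axis from 0; each digit is the replicate number of 1 sample, and the bars give the mean and SD of 4 WT and 3 *Trpc1*-/- samples. For *Chad* the WT samples lie between 157 and 210 CPM and the *Trpc1*-/- samples between 95.8 and 136 CPM, whereas for *Ogn* and *Lum* the groups overlap.

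*Chad* had 210, 171, 157, and 195 CPM in WT replicates 1 to 4 and 97.5, 136, and 95.8 CPM in *Trpc1*-/- replicates 1 to 3. The lowest WT sample, replicate 3, was above the highest *Trpc1*-/- sample, replicate 2, so the groups did not overlap. The mean of the *Trpc1*-/- samples was 59.8% of the WT mean (110 ± 22.5, n = 3, against 183 ± 23.7, n = 4, mean ± SD). The logFC was −0.74 (SE 0.16), and the adjusted P was 0.395 in edgeR and 0.00267 in DESeq2. *Chad* ranked 75 of the 16429 genes by edgeR's P. When each sample was left out in turn, the logFC stayed between −0.93 and −0.65, and DESeq2 called the gene in 5 of 7 cases. It was not called without *Trpc1*-/- replicate 1 (adjusted P = 0.101) or replicate 3 (0.142). *Chad* lies on chromosome 11 at 94565047-94569127 (plus strand, GRCm38), inside the span of *Acsf2* on the opposite strand, which had 10.6 ± 3.45 CPM in WT and 9.36 ± 1.48 CPM in *Trpc1*-/- samples.

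*Prelp*, whose product anchors basement membranes to collagen, had 232, 212, 196, and 168 CPM in WT replicates 1 to 4 and 124, 166, and 115 CPM in *Trpc1*-/- replicates 1 to 3. The groups did not overlap, but WT replicate 4 and *Trpc1*-/- replicate 2 were only about 2 CPM apart. The *Trpc1*-/- mean was 66.9% of the WT mean, and the logFC was −0.58 (SE 0.16). Adjusted P values were 0.403 in edgeR and 0.0411 in DESeq2. Leaving out each sample in turn moved the logFC between −0.76 and −0.48, and the DESeq2 call held in 3 of 7 cases, without WT replicates 1 and 4 and without *Trpc1*-/- replicate 2. It was lost without WT replicate 2 or 3 (adjusted P = 0.253 and 0.12) and without *Trpc1*-/- replicate 1 or 3 (0.392 and 0.542). The gene lies on chromosome 1 at 133910304-133921414 (minus strand) and overlaps *Gm15851*, an antisense gene on the plus strand, whose counts were not examined.

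The 250 bases before the transcription start of *Chad* and *Prelp* are shown because these 2 genes had groups that did not overlap, and those of *Ogn* because its logFC was closest to 0 among the members. The windows come from RefSeq on GRCm38.p6, at chr11:94564797-94565046 on the plus strand for *Chad*, chr1:133921402-133921651 on the minus strand for *Prelp*, and chr13:49607765-49608014 on the plus strand for *Ogn*. Capitals mark matches on either strand to any of 4 motifs. These are the box TATAAA, the box spelled CCAAT, the letters ACAATG that SOX factors are known to bind, and the letters TGTGGT that RUNX factors are known to bind.
Chad promoter: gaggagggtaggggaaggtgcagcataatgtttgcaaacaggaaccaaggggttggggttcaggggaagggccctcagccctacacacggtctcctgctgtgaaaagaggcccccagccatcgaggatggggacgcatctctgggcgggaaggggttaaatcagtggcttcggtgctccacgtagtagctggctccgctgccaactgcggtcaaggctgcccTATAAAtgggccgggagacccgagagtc
Prelp promoter: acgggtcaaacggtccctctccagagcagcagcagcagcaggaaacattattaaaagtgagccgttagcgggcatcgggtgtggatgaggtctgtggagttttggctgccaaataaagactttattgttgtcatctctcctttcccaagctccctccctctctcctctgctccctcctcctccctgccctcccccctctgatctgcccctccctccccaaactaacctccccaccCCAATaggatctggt
Ogn promoter: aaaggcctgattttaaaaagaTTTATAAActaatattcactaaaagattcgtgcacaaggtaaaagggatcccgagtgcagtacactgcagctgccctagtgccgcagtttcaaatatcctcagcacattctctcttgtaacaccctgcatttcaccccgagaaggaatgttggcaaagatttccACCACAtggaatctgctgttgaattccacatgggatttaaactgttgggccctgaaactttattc
*Chad* held TATAAA close to its start, *Prelp* held CCAAT, and *Ogn* held a stretch that matches TATAAA on both strands, with the matches overlapping, and TGTGGT on the minus strand. *Dcn* and *Lum* have no entry in the table. Over the 8 members with a window, TATAAA occurred in 2 (*Ogn* and *Chad*), CCAAT in 2 (*Acan* and *Prelp*), TGTGGT in 2 (*Hapln1* and *Ogn*), and ACAATG in 0. Of the 32851 windows of all genes, these letters were found in 12.4%, 33.8%, 14%, and 10.7%, respectively. A match is a description of the letters and not of binding.

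**Figure D2:**
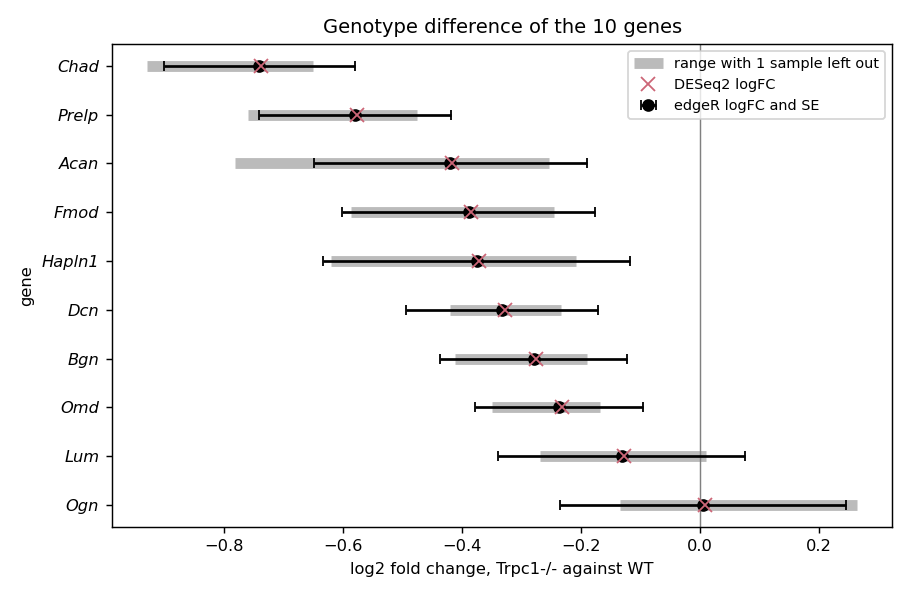
Log2 fold change of each gene, *Trpc1*-/- against WT, from edgeR; black points and bars give the estimate and SE, gray bars the range with each sample left out in turn, and crosses the DESeq2 estimate. *Chad* (−0.74) and *Prelp* (−0.58) lie farthest from 0, and *Ogn* lies at 0.0059.

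*Acan*, the major proteoglycan of cartilage, had 636, 592, 580, and 705 CPM in WT replicates 1 to 4 and 355, 675, and 379 CPM in *Trpc1*-/- replicates 1 to 3. Replicates 1 and 3 of *Trpc1*-/- were below every WT sample, whereas replicate 2 was above 3 of the 4, so the groups overlapped. The logFC of −0.42 (SE 0.23) had adjusted P values of 0.547 in edgeR and 0.437 in DESeq2. The SD was 178 CPM within the *Trpc1*-/- group and 56.5 CPM within WT. The size of this difference depended on each of the *Trpc1*-/- libraries. Without *Trpc1*-/- replicate 2 the logFC was −0.78 and DESeq2 called the gene (adjusted P = 5.92e-08, beside 2.23% of all genes called without that sample), whereas without *Trpc1*-/- replicate 1 it was −0.25 and without replicate 3 it was −0.28. Collagen II (*Col2a1*), the main fibril collagen of cartilage, had the same order among the *Trpc1*-/- samples, with 1453, 3266, and 1695 CPM against 2697 to 3300 CPM in WT.

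*Hapln1*, the link protein that joins aggrecan to hyaluronan, had 150, 248, 262, and 285 CPM in WT replicates 1 to 4 and 137, 237, and 172 CPM in *Trpc1*-/- replicates 1 to 3. WT replicate 1 lay among the *Trpc1*-/- samples, and the groups overlapped. The logFC was −0.38 (SE 0.26, edgeR adjusted P = 0.609). Without WT replicate 1, DESeq2 called *Hapln1* lower (adjusted P = 0.0281, beside 5.42% of all genes), edgeR did not call it (beside 0.298% of all genes), and the logFC ranged from −0.62 to −0.21 over the 7 samples left out in turn. Link protein and aggrecan were also compared as a ratio, since they work in one aggregate. *Hapln1* over *Acan* was 0.235, 0.419, 0.452, and 0.405 in WT and 0.386, 0.352, and 0.453 in *Trpc1*-/- samples, which overlapped, and the difference of the log2 ratio was 0.11 (exact two-sided permutation test, P = 0.914, adjusted over 6 ratios 0.914). Its sign turned to −0.11 without WT replicate 1. For *Acan* over *Col2a1* the log2 difference was 0.089 (exact permutation P = 0.514), and for *Prelp* over *Acan* it was −0.11 (exact permutation P = 0.571), so both ratios differed by less than the SD within WT. The difference of *Acan* over *Col2a1* was 0.19 without WT replicate 4 (exact permutation P = 0.1, the smallest possible with 3 against 3), 0.046 without WT replicate 1, and 0.028 without *Trpc1*-/- replicate 1.

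Decorin and biglycan are the closely related class of the family with a single or a pair of chondroitin or dermatan sulfate chains. *Dcn* had 909, 1118, 1135, and 805 CPM in WT and 852, 834, and 676 CPM in *Trpc1*-/- samples. *Bgn* had 586, 543, 498, and 408 CPM in WT and 401, 490, and 367 CPM in *Trpc1*-/- samples. WT replicate 4 was the lowest WT sample for both and lay within the *Trpc1*-/- range of each gene, so the groups overlapped. The logFC was −0.33 (SE 0.16, edgeR adjusted P = 0.525) for *Dcn* and −0.28 (SE 0.16, adjusted P = 0.556) for *Bgn*. Neither was called by DESeq2 (adjusted P = 0.364 and 0.472) or in any of the 7 fits with a sample left out. Their ratio, *Dcn* over *Bgn*, ran from 1.55 to 2.28 in WT and from 1.70 to 2.12 in *Trpc1*-/- samples (log2 difference −0.048, exact permutation P = 0.8).

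Fibromodulin and lumican bind a shared region of collagen fibrils. *Fmod* had 272, 286, 267, and 174 CPM in WT and 182, 238, and 151 CPM in *Trpc1*-/- samples. *Lum* had 429, 519, 498, and 306 CPM in WT and 419, 463, and 318 CPM in *Trpc1*-/- samples. For both, WT replicate 4 was well below the other WT samples, within the *Trpc1*-/- range for *Fmod* and below all 3 *Trpc1*-/- samples for *Lum*. The logFC was −0.39 (SE 0.21, edgeR adjusted P = 0.548) for *Fmod* and −0.13 (SE 0.21, adjusted P = 0.827) for *Lum*, which turned to 0.011 without *Trpc1*-/- replicate 3. The ratio of the 2 genes within each sample separated the groups although neither gene did. *Fmod* over *Lum* was 0.633, 0.550, 0.535, and 0.568 in WT and 0.435, 0.514, and 0.475 in *Trpc1*-/- samples. The log2 ratio was lower by 0.27 in the *Trpc1*-/- samples (−1.08 ± 0.12, n = 3, against −0.81 ± 0.11, n = 4), with an exact two-sided permutation P of 0.0571, which is the smallest that 4 against 3 samples allow, and 0.343 after adjustment over the 6 ratios. The design could therefore not pass 0.05, and this ratio is given as a value.

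Osteoglycin and osteomodulin are found in bone as well as in cartilage, and their genes lie side by side on chromosome 13. *Omd* had 33.5, 48.4, 50.3, and 44.5 CPM in WT and 38.2, 39.9, and 34.4 CPM in *Trpc1*-/- samples. WT replicate 1 was the lowest of all 7 samples, and the *Trpc1*-/- samples were below the other 3 WT samples. The logFC was −0.24 (SE 0.14), and neither edgeR (adjusted P = 0.574) nor DESeq2 (adjusted P = 0.558) called it. Without WT replicate 1 it was −0.35, with an adjusted P of 0.129 in edgeR and 0.00641 in DESeq2, which then called 5.42% of all genes. *Ogn* had 93.9, 62.1, 51.3, and 43.5 CPM in WT and 60.9, 64.7, and 63.1 CPM in *Trpc1*-/- samples. Its *Trpc1*-/- samples were close together (SD 1.93 CPM) and lay within the WT range, which WT replicate 1 set at the top. The logFC of *Ogn* was 0.0059 (SE 0.24), and it was 0.26 without WT replicate 1 and −0.13 without WT replicate 4, so no direction can be given. The log2 ratio of *Omd* to *Ogn* differed by −0.29 (exact permutation P = 0.514), with an SD of 0.71 within WT, and was −0.63 without WT replicate 1 (exact permutation P = 0.1, the smallest that 3 against 3 samples allow) and −0.12 without WT replicate 4. Both genes overlap *Cenpp* on the opposite strand, at 9.72 ± 0.679 CPM in WT and 11.8 ± 0.659 CPM in *Trpc1*-/- samples.

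Compared per kilobase of the principal transcript, the levels spanned a wide range and had the same order in both groups. In WT the mean was 564 ± 91.9 CPM per kilobase (SD, n = 4) for *Dcn*, 210 for *Bgn*, 179 for *Lum*, 109 for *Chad*, 85.4 for *Acan*, 80.0 for *Fmod*, 55.9 for *Prelp*, 41.3 for *Hapln1*, 24.4 for *Ogn*, and 19.6 for *Omd*. Between neighbors in that order, the WT ranges were apart only for *Dcn* above *Bgn* and *Lum* above *Chad*, and all other neighbors overlapped. *Lum* and *Chad* were barely apart, with a lowest WT value of 125.19 for *Lum* and a highest of 125.015 for *Chad*. *Dcn* was above 99.4% of the tested genes by this measure and *Omd* above 83.3%. In the *Trpc1*-/- samples the mean was 448 ± 54.9 CPM per kilobase (SD, n = 3) for *Dcn*, 65.3 for *Chad*, 63.9 for *Acan*, and 16.7 for *Omd*. The order depends on the transcript length used, and that of *Dcn* is 5838 bases over all exons but 1758 in the principal transcript. With the length of all exons, *Lum* came first in WT (179 CPM per kilobase), followed by *Dcn* (170), *Chad*, *Acan*, and *Bgn* (83.4). In the *Trpc1*-/- samples *Bgn* (68.7) then came before *Chad* (65.3) and *Acan* (62.9), so with this length the order differed between the groups. This second length was chosen after seeing the data.

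**Figure D3:**
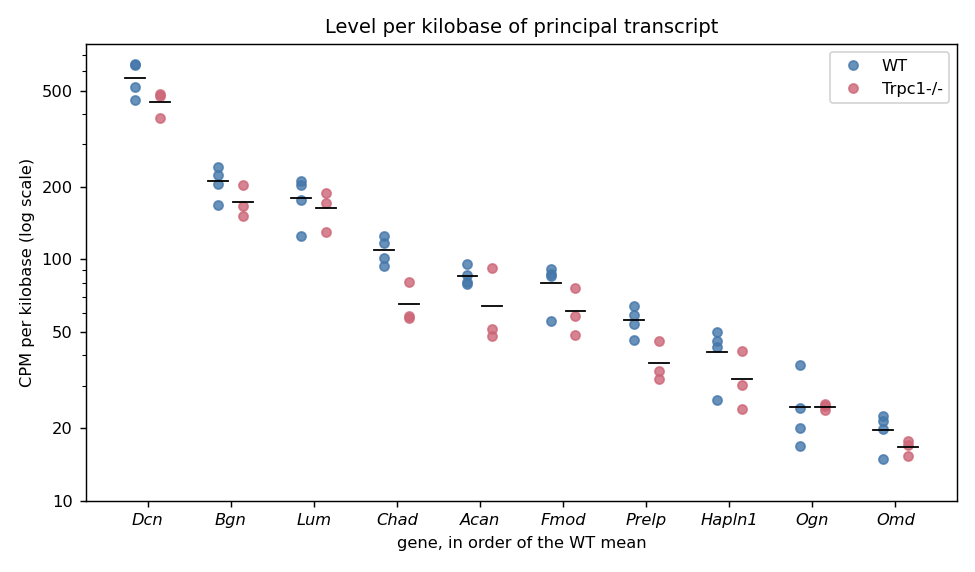
CPM per kilobase of the principal transcript on a log axis, 1 point per sample, 4 WT and 3 *Trpc1*-/-, genes in order of the WT mean. *Dcn* (458 to 646 CPM per kilobase in WT) stands above *Bgn*, and *Omd* (14.9 to 22.4) lies lowest.

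The samples did not fall in one order for all members. *Trpc1*-/- replicate 2 was the highest of its group for 9 of the 10 members, all but *Dcn*, and replicate 3 was the lowest for 7. In WT, replicate 4 was lowest for 6 members (*Dcn*, *Bgn*, *Fmod*, *Lum*, *Prelp*, and *Ogn*) and highest for *Acan* and *Hapln1*. WT replicate 1 was highest for *Bgn*, *Prelp*, *Ogn*, and *Chad* and lowest for *Hapln1* and *Omd*. Over the 7 samples, log2 CPM of *Bgn* and *Fmod* had a Pearson's r of 0.963 (Spearman's rho 0.929) and that of *Bgn* and *Prelp* 0.931 (0.964), whereas *Ogn* and *Omd* had −0.685 (−0.679). *Acan* and *Chad* had 0.877 (0.679), which fell to 0.135 when the 2 samples farthest from the median of *Acan* were left out, so that likeness rests on them. These 2 are *Trpc1*-/- replicates 1 and 3, so the coefficient in part reflects the difference between the groups. The same step, by the first gene named, left 0.915 for *Bgn* and *Fmod*, 0.860 for *Bgn* and *Prelp*, and −0.651 for *Ogn* and *Omd*. The coefficients over all samples describe 7 samples that share libraries and 2 genotypes, and of the 45 pairs of members 41 had an r above 0 (median 0.462).

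**Figure D4:**
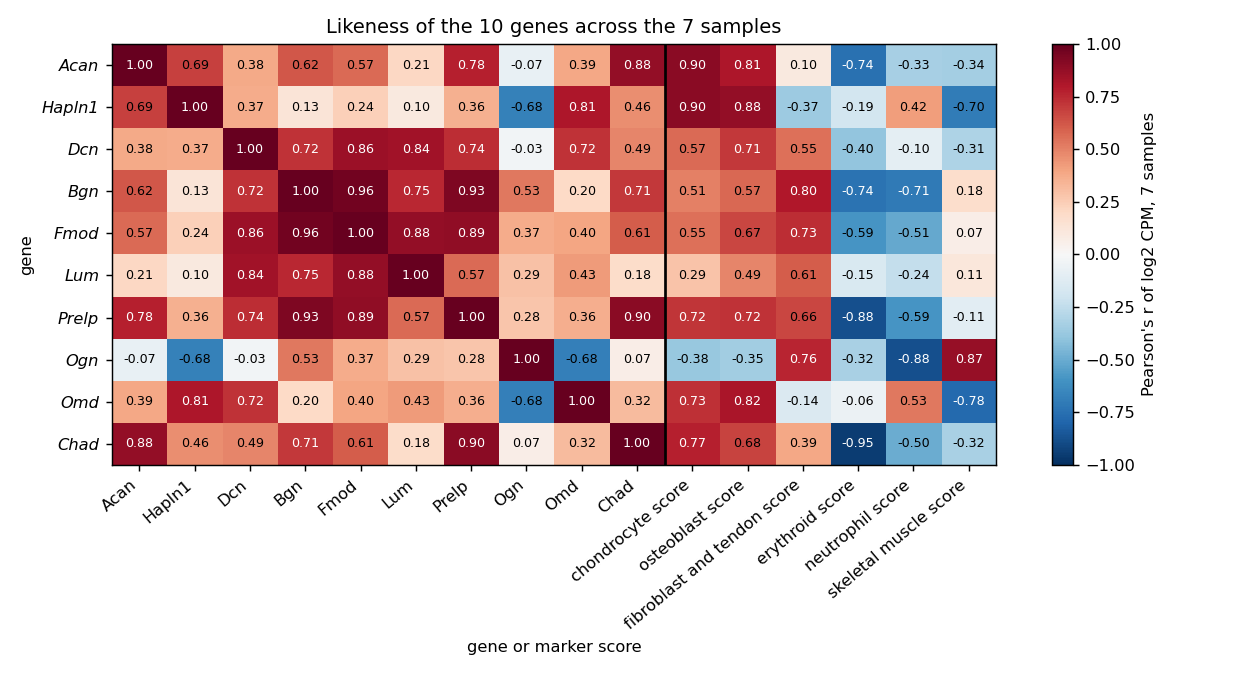
Pearson's r of log2 CPM over the 7 samples (color scale), between the 10 genes (left of the line) and between each gene and 6 marker scores (right of the line). *Bgn* and *Fmod* have 0.963, *Ogn* and *Omd* −0.685, and *Chad* and the erythroid score −0.952.

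Among the 9762 genes compared, those with the pattern most like a member by Pearson's r over the 7 samples were, for *Hapln1*, *Snorc* (0.992), *Cnmd* (0.984), and *Col9a1* (0.977), which are cartilage genes. For *Acan* they were *Mmp16* (0.986), *Pth1r*, and *Slc13a5*, and for *Dcn* they were *Nupr1* (0.984), *Nt5e*, and *Comp*, a cartilage matrix protein. *Fmod* was most like *Col5a2* (0.990), *Sdc2*, and *Lzts2*, the first of which encodes a fibril collagen. *Prelp* was most like *Rftn2* (0.996), *Loxl3*, and *Smo*, and *Chad* most like *Lgr6* (0.990), *Atg16l2*, and *Selenon*. *Ogn* was most like *Sfrp2* (0.991), *Zbtb7a*, and *Ace*, and *Omd* most like *Dap* (0.997), *Wdr6*, and *Slc6a4*. *Bgn* was most like *Slc44a1* (0.995), *Evc*, and *Dag1*, and *Lum* most like *Aldh7a1* (0.974), *Zbtb41*, and *Dctn1*. With 7 samples, coefficients of this size are the top of many and carry no test.

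Marker genes of the cell types that this tissue can hold are given beside the members. The mean log2 CPM of 16 chondrocyte markers was 6.51 to 6.89 in WT and 6.04 to 6.71 in *Trpc1*-/- samples, with 15 of the 16 lower, a difference of −0.46 (exact permutation P = 0.114, adjusted over 6 lists 0.229). Of the 12 osteoblast markers all 12 had a logFC below 0 (difference of the mean −0.34, P = 0.114 by the same exact test). The 11 measured erythroid markers, among them the globins, all had a logFC above 0, 10 of them without overlap (beside 7.15% of all tested genes). Their mean log2 CPM was 8.95 to 9.62 in WT and 9.82 to 10.1 in *Trpc1*-/- samples, a difference of 0.64 with P = 0.0571 by the exact permutation test, the smallest possible. Fibroblast and tendon markers (12 genes) had a mean log2 CPM of 4.64 to 5.49 in WT and 4.84 to 4.94 in *Trpc1*-/- samples (exact permutation P = 0.343). Neutrophil markers (10 genes) had 8.43 to 9.92 and 9.48 to 9.83 (exact permutation P = 0.8). Skeletal muscle markers (10 genes) had 2.39 to 6.77 and 4.89 to 6.54 (exact permutation P = 0.343). The differences of the mean were −0.23 for fibroblast and tendon, 0.25 for neutrophil, and 1.28 for muscle markers, the last with an SD of 1.80 within WT. Of the fibroblast and tendon markers 10 had a logFC below 0 and 2 above, and all 10 neutrophil and all 10 muscle markers had one above 0. Markers of a list thus also shared a sign where the scores of the groups overlapped. WT replicate 1, the sample with the highest *Ogn* level, had the highest muscle and fibroblast scores and the lowest neutrophil score of the 7. All tested markers of the 6 lists had counts in all 7 samples. With the chondrocyte score in the edgeR model, the logFC of *Chad* was −0.59, that of *Prelp* −0.47, and that of *Acan* −0.0081, each with an adjusted P of 0.792 or more. Over the 7 samples this score had a Pearson's r of 0.90 with *Acan*, 0.775 with *Chad*, and 0.716 with *Prelp*. A gene that follows the score so closely is left with little difference in such a fit, which cannot tell a change in *Acan* from one in the score. With the erythroid score in place of the chondrocyte score, the logFC of *Chad* was −0.25 (adjusted P = 0.315) and that of *Prelp* −0.23 (adjusted P = 0.491). Because the erythroid scores of the 2 groups do not overlap, genotype and this score cannot be told apart. The part of any cell type in the members' differences was not tested further. The mouse numbers of WT replicates 3 and 4 are in the 1700s and all others in the 1300s. Within the 1300s alone, the edgeR logFC was −0.80 for *Chad* and −0.72 for *Prelp* (adjusted P = 0.378 for each). That fit sets the 3 *Trpc1*-/- samples against WT replicates 1 and 2 only, and WT replicate 1 is the sample that stood apart.

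The other genes of the pathway, a list of 44 proteoglycan, hyaluronan, and link protein genes chosen with earlier results known, gave 36 tested genes. Of these, 31 had a logFC below 0 and 5 above, with a median of −0.28. At an unadjusted P under 0.05 in edgeR, 8 were lower (beside 5.49% of all tested genes) and 0 higher (beside 4.51%), and 0 passed adjustment. DESeq2 called 1 of the 36 lower, *Cemip* (beside 0.828% of all tested genes), and for 6 of the 36, or 16.7%, all *Trpc1*-/- values lay below all WT values (beside 6.42%). *Cemip*, which encodes a protein that degrades hyaluronan, had 60.4, 46.6, 43.0, and 45.1 CPM in WT and 28.9, 36.4, and 19.9 CPM in *Trpc1*-/- samples, with all *Trpc1*-/- samples lower (logFC −0.78, SE 0.21, edgeR adjusted P = 0.395, DESeq2 adjusted P = 0.0328). That DESeq2 call held in 2 of 7 fits with a sample left out. The other 5 without overlap were *Vcan* (versican, logFC −0.49), *Has2* (hyaluronan synthase, −0.38), *Prg4* (lubricin, −0.53), *Sdc4* (syndecan 4, −0.36), and *Tgfbr3* (betaglycan, −0.32). For *Prg4* the nearest samples were 389 CPM in WT and 388 CPM in *Trpc1*-/-. *Cd44*, the hyaluronan receptor, was at 248 ± 20.7 CPM in WT and 246 ± 5.73 CPM in *Trpc1*-/- samples. All 9 tested members of the remaining small leucine-rich family had a logFC below 0 (median −0.30), and 1 of them, *Tsku* (tsukushi), had an unadjusted P under 0.05 in edgeR. *Optc* did not pass the filter, with 9 counts or fewer in each sample.

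**Figure D5:**
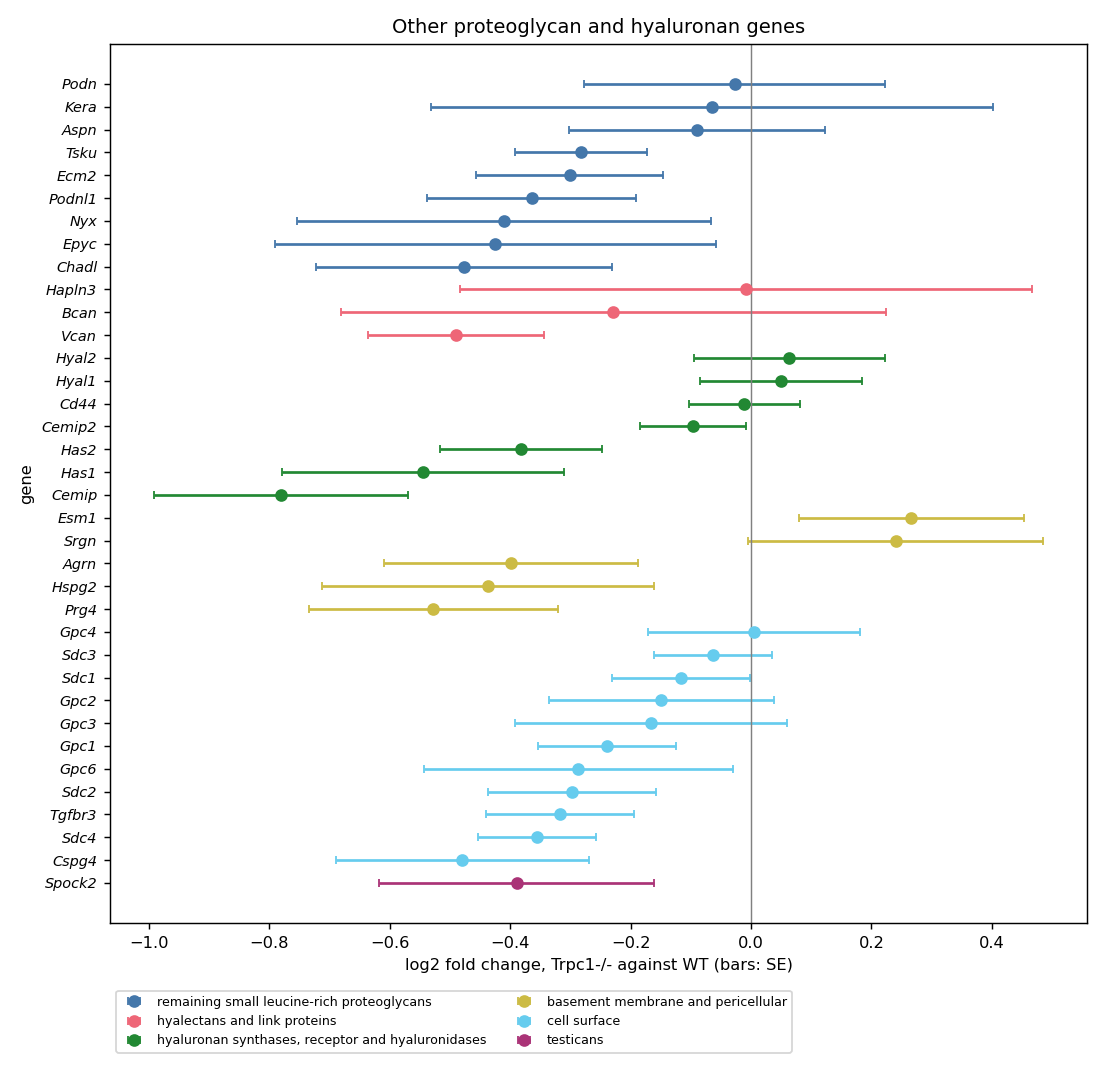
Log2 fold change with SE of the 36 tested genes of the list, *Trpc1*-/- against WT, from edgeR, colored by group of genes. *Cemip* lies lowest at −0.78, *Esm1* highest at 0.27, and 31 of 36 lie below 0.

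Several members lie next to relatives in the genome, with no other coding gene lying wholly between them, although *Cenpp* on the opposite strand covers the whole span that holds *Omd* and *Ogn*. *Dcn*, *Lum*, *Kera*, and *Epyc* span chr10:97479609-97682454 (203 kb, GRCm38), and the logFC was −0.33, −0.13, −0.065, and −0.42 in that order, none called. *Optc*, *Prelp*, and *Fmod* lie within chr1:133897199-134048277 (151 kb), with −0.58 for *Prelp* and −0.39 for *Fmod*. *Ecm2*, *Aspn*, *Omd*, and *Ogn* lie within chr13:49504810-49624501 (120 kb), with −0.30, −0.090, −0.24, and 0.0059, and *Aspn* turned to 0.024 without WT replicate 1. *Acan* is next to *Hapln3* (chr7:79053483-79131018), which at 1.04 ± 0.757 CPM in WT was far below *Acan*. *Hapln1* is next to *Vcan* (chr13:89539796-89742509), with −0.38 and −0.49. It also overlaps *Gm8546*, a processed pseudogene on the opposite strand, whose counts were not examined. Differences between neighbors were not tested. *Bgn* lies apart from these clusters, at chrX:73483602-73495933 (plus strand).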

How the data were processed

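RNA-Seq of 7 pooled knee samples was analysed. The authors prepared stranded libraries after ribosomal RNA depletion, trimmed reads with Cutadapt 2.5, aligned them to GRCm38 with HISAT2 2.1.0, and derived estimated counts per gene with StringTie 2.0.3 and its prepDE script, and the annotation release is not given in the sources used here. The deposited expected counts are whole numbers, not normalized, so rounding left them unchanged. How reads shared between genes were split was fixed at that point. Columns were matched to samples by label.

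The filter on low counts required over 1 CPM in 2 samples or more (16429 of 55401 genes passed). Counts were scaled by TMM and tested with edgeR 4.0.16 in R 4.3.3 (quasi-likelihood test, genotype only, Benjamini-Hochberg over all tested genes, threshold 0.05, common dispersion 0.0424), with SE from the F statistic. CPM in the text are TMM-scaled. DESeq2 1.42.0 with default settings and limma 3.58.1 (voom) were alternatives, as were other normalizations and filters, covariates, the 1300s alone, and each sample left out. The fits were tested on simulated data. Marker scores use log2 CPM with a prior count of 1, and ratios use CPM without a prior count. Both were compared by exact two-sided permutation of the 7 samples (35 splits, scipy 1.17.1). Positions and lengths come from GENCODE M21, promoter windows from RefSeq. The members and lists were chosen with earlier results of these data known. Named genes beyond the members are the 12 other proteoglycan genes with the smallest P, the genes clustered with members, and the 3 genes most like each member. *Cd44*, *Esm1*, and *Hapln3* were named after their values were seen. *Acsf2*, *Cenpp*, *Gm15851*, and *Gm8546*, which that rule did not cover, were named because they overlap members on the opposite strand. No 2 libraries agreed within sampling noise. The erythroid marker *Ahsp* was not analysed here.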

Additional observations from a re-analysis of the deposited data

Results flagged for a closer look

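In groups of 4, a sample stood apart when its gap to the nearest other, divided by the group's range, exceeded Dixon's critical value, which chance alone does in about 1 in 20 groups. Of 41 WT values tested, 6 did so, all in WT replicate 1 or 4. *Fmod* was at 174 CPM in WT replicate 4 against 267 to 286 CPM in the others, a gap of 0.8294 of the range. *Has1*, a hyaluronan synthase, was at 5.51 CPM in WT replicate 4 against 9.43 to 9.68 CPM (0.940), and *Ecm2* at 33.8 CPM against 49.0 to 51.7 CPM (0.853). *Gpc1*, glypican 1, was at 129 CPM in WT replicate 1 against 149 to 152 CPM (0.862). The log2 ratio of *Hapln1* to *Acan* was −2.09 in WT replicate 1 against −1.31 to −1.15 (0.832), and that of *Acan* to *Col2a1* was −1.94 in WT replicate 4 against −2.37 to −2.33 (0.889).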

How the results depend on the processing

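No member passed an adjusted P of 0.05 in any edgeR or limma-voom alternative. DESeq2 called 294 genes, 2 members, and 1 other proteoglycan gene (*Cemip*). Limma-voom called 1 gene. With the chondrocyte score as a covariate 1 gene was called, and 1 member and 2 other genes were at P under 0.05 (beside 4.35% of all genes). With the erythroid score 842 of the 16429 genes were called, among them 4 of the 36 others. In that fit 33% of all genes were at P under 0.05. The mouse number series as a covariate gave 14 of 36 others at P under 0.05 (beside 17.6% of all genes), and the 1300s alone gave 4 of 10 members (beside 13.2%). Leaving out each sample in edgeR gave 0 to 49 genes (49 without WT replicate 1), 2 to 5 members and 3 to 11 others at P under 0.05 (beside 4.35% to 16.9% of all genes). The same in DESeq2, added after seeing the data, called 890, 62, 134, and 283 of the 16429 genes without WT replicates 1 to 4. Without *Trpc1*-/- replicates 1 to 3 it called 79, 367, and 37. Of the members 0 to 4 were called, and of the others 0 to 4. Without WT replicate 1, 4 members and 4 others were called, beside 5.42% of all genes. Without *Trpc1*-/- replicate 2, 3 members and 4 others were called, beside 2.23% of all genes. At P under 0.05 there were 2 to 6 members and 4 to 15 others, beside 5.84% to 17.2% of all genes. Deviations of same-numbered samples had a mean r of −0.199 (−0.348 to −0.0439, 3 pairs), against 0.0655 (−0.332 to 0.364, 9 pairs) for the rest. With so few pairs and overlapping ranges, this cannot decide whether the numbers pair the samples. The fit with a replicate block called 0 genes, with 3 members at P under 0.05 (beside 5.93%) and *Ogn* at −0.088. Signs turned for *Ogn* with library size alone (−0.028), upper quartile (−0.012), the series covariate and the 1300s (−0.31), the chondrocyte score (−0.24), and in edgeR without *Trpc1*-/- replicate 2 (−0.022), WT replicate 3 (−0.079), or 4 (−0.13), and likewise in DESeq2 (−0.010, −0.075, −0.13). Others that turned were *Lum* without *Trpc1*-/- replicate 3 (0.011, DESeq2 0.015), *Aspn* (0.024, DESeq2 0.028) and *Kera* (0.40, DESeq2 0.41) without WT replicate 1, *Kera* in limma-voom (0.24), with the chondrocyte score *Hapln1* (0.28), *Podnl1* (0.031), *Gpc1* (0.012), and *Epyc* (0.49), and with the erythroid score *Acan* (0.013), *Bgn* (0.020), *Tgfbr3* (0.11), *Prg4* (0.19), *Cspg4* (0.13), *Aspn* (0.14), *Kera* (1.02), and *Col2a1* (0.049). Over samples left out, the difference ran from −0.11 to 0.21 for *Hapln1* to *Acan*, −0.25 to 0.027 for *Prelp* to *Acan*, −0.16 to 0.027 for *Dcn* to *Bgn*, and −0.086 to 0.41 for the neutrophil score. In the 1300s *Dcn* to *Bgn* was 0.075 and *Omd* to *Ogn* 0.18. Over samples left out in edgeR, the logFC ran from −0.27 to 0.011 for *Lum*, −0.13 to 0.26 for *Ogn*, −0.26 to 0.024 for *Aspn*, and −0.35 to 0.40 for *Kera*. The cause was not tested.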
